A study of Mus musculus with 48 samples.

Results

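Zscan4c, Zscan4d, Zscan4f, Tcstv1 and Tcstv3 are mouse genes that mark the two-cell-like state, and they are 5 of the 24264 transcripts in the deposited count table. They were chosen by name, with no threshold on their values. Levels are given as CPM, the reads of a gene scaled to a fixed total of reads on all transcripts of that library.

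In early mouse embryos the genome is first transcribed strongly at the two-cell stage, when Zscan4 and Tcstv genes, MERVL endogenous retroviruses and their LTR promoters are switched on for a short time. Cultures of mouse embryonic stem cells (ESCs) contain a small and changing number of cells that pass through a similar state. Zscan4 proteins carry a SCAN domain and zinc fingers and are known for telomere lengthening by recombination and for genome stability in ESCs. Tcstv1 and Tcstv3 belong to a small family with variable expression at the two-cell stage and have also been linked to telomere length. In bulk RNA, fewer cells in this state and less RNA per cell cannot be told apart.

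The study compared reprogramming of mouse embryonic fibroblasts (MEFs) to induced pluripotent stem cells (iPSCs) by 2 polycistronic cassettes, MKOS and OKMS, that carry c-Myc, Klf4, Oct4 and Sox2 in a different order. The MKOS cassette has a long form of Klf4 and the OKMS cassette a short form that lacks the first residues, so order and Klf4 form cannot be told apart in comparisons of the systems. Its 48 libraries, which fall into 20 conditions, were made by STRT, a method that reads the 5′ ends of transcripts. Sorted cells from day 10 of reprogramming, in doxycycline and vitamin C, had 3 libraries per condition, and MEFs, iPSCs and ESCs had 2. All sorted cells were CD44-: 2NG- cells were ICAM1- Nanog-GFP-, 3NG- cells ICAM1+ Nanog-GFP- and 3NG+ cells ICAM1+ Nanog-GFP+, and E-CAD+ or E-CAD- gives E-cadherin on the surface. MKOS cells gave E-CAD+ 2NG-, 3NG- and 3NG+ populations, and OKMS cells gave these and E-CAD- 2NG- and 3NG- populations. The other conditions were WT MEFs, MKOS and OKMS MEFs derived from targeted ESCs, MKOS and OKMS iPSC clones without doxycycline (-dox) or in 2i, D6 iPSCs (line D6s4B5), E14 ESCs, TNG ESCs with a Nanog-GFP reporter, and TNG MKOS and TNG OKMS ESCs, which are TNG ESCs with one of the cassettes in the Sp3 locus. The MKOS and OKMS MEFs, and the sorted cells made from them, came from these targeted ESC lines by way of chimeric embryos. Cells that descend from these lines carry the reporter and the same cassette in Sp3. The paper measured the proportion of such cells among the MEFs, so the MEF libraries may also hold cells without the cassette. For reprogramming, these MEFs were mixed with WT MEFs. 2i is the usual name for culture with inhibitors of MEK and GSK3; the labels name it without a recipe. The labels do not say whether replicates came from separate cultures or embryos, so p-values measure only the spread between these libraries.

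The Zscan4 copies lie close together on chromosome 7 and resemble each other, which limits how reads can be assigned to one copy. The 250 bases before the annotated starts of the members that had a promoter in the RefSeq table (GRCm38.p6) are shown because they are nearly the same sequence and because the 3 genes moved together in the data below. They are Zscan4c at chr7:11005495-11005744 on the plus strand, Zscan4d at chr7:11166149-11166398 on the minus strand and Zscan4f at chr7:11397665-11397914 on the plus strand. The sequences run 5′ to 3′ along the gene, and capitals mark the letters TATAAAA.
Zscan4c: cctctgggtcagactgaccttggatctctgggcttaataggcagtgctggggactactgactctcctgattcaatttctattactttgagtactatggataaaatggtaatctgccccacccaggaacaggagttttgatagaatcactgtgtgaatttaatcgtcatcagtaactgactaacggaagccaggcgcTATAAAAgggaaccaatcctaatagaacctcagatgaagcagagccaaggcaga
Zscan4d: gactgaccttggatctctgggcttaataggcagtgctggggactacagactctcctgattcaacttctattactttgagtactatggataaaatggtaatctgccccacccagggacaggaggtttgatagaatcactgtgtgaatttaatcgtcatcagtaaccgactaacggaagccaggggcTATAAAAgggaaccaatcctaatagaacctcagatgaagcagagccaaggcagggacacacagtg
Zscan4f: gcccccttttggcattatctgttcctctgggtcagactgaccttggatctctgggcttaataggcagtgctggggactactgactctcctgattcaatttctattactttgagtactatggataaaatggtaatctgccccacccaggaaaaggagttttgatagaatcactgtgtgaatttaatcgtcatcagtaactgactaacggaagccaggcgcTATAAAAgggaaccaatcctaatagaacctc

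The RefSeq windows also take in the first bases after each start, and over the 277 bases that the windows of Zscan4c and Zscan4f share, 275 were identical. Zscan4c and Zscan4d shared 281 of 289 bases, and Zscan4d and Zscan4f shared 259 of 266. TATAAAA began 54 bases before the annotated start of Zscan4c, 65 bases before that of Zscan4d and 31 bases before that of Zscan4f, so the annotated starts of the copies lie at different distances from the same letters. On either strand, these letters were present in the same 250 bases of 1636 of 32851 promoters (4.98%).

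The share of reads that had a single position in the genome differed widely between the 5 genes. Over all libraries, 1811 of 2103 Zscan4c reads (86.1%) and 474 of 547 Tcstv3 reads (86.7%) were unique. For Tcstv1 138 of 520 reads (26.5%) were unique, for Zscan4d 275 of 6990 (3.93%) and for Zscan4f 11 of 2594 (0.424%). Over all transcripts, 73.9% of reads were unique. Reads with several positions were given to the most 5′ exonic position, so the split between Zscan4d, Zscan4f and the other copies is uncertain in every library, whereas most Zscan4c and Tcstv3 reads had no other place. The genes lie at chr7:11005745-11010547 (Zscan4c, plus strand), chr7:11161643-11166148 (Zscan4d, minus), chr7:11397915-11402318 (Zscan4f, plus), chr13:119893387-119894785 (Tcstv1, minus) and chr13:120316862-120318261 (Tcstv3, plus) in GRCm38.p6, and all 5 are annotated as protein coding.

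A library had 1429717 to 14174725 reads on transcripts, so 3 reads, the limit that a count of 0 allows, stood for 0.212 to 2.10 CPM. The highest limit belonged to OKMS 3NG+ replicate 2, the shallowest library. MEFs differed from iPSCs and ESCs in the markers of both cell types. The summed level of 6 pluripotency markers was 2.11 to 11.8 CPM in MEFs and 11284 to 23359 CPM in iPSCs and ESCs, and that of 8 fibroblast markers was 3065 to 5544 CPM in MEFs and 2.47 to 25.6 CPM in iPSCs and ESCs. Nanog was at 0 in every MEF library. In sorted cells the pluripotency markers summed to 2970 to 13829 CPM (MKOS) and 186 to 16226 CPM (OKMS). Nanog mRNA overlapped between MKOS 3NG- (22.3 to 75.7 CPM) and 3NG+ cells (51.1 to 90.7 CPM), whereas in OKMS E-CAD+ cells it was at 17.9 to 45.0 CPM in 3NG- and 81.8 to 97.3 CPM in 3NG+ libraries.

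MEFs had no read of any of the 5 genes. All 6 MEF libraries, 2 each of WT, MKOS and OKMS MEFs, were at 0, where 3 reads stand for 0.226 to 0.665 CPM. In the 18 iPSC and ESC libraries the summed level of the 5 genes was between 1.27 and 672 CPM, so on the sum no such library overlapped the MEFs. Each gene alone did overlap, since some of these libraries were at 0 for it. Zscan4c, Zscan4d and Zscan4f each had reads in 17 of the 18 libraries, and Tcstv1 and Tcstv3 each in 14. The mean over the 9 iPSC and ESC conditions was 18.4 CPM for Zscan4c, 60.9 CPM for Zscan4d and 21.5 CPM for Zscan4f, and against the limit of 3 reads in MEFs these were at least 41.8-fold, 138-fold and 48.8-fold higher. Zscan4c, Zscan4d and Zscan4f were called higher by edgeR's quasi-likelihood test (adjusted p = 3.2e-08, 5.8e-10 and 3.9e-08), that is, 3 of 5 genes, where 28.5% of the 15630 transcripts tested were called higher in this contrast. With few reads outside iPSCs and ESCs, these 3 genes could pass the expression filter only through those cells, which can raise this count. Tcstv1 had a mean of 4.41 CPM and Tcstv3 of 4.49 CPM, at least 9.99-fold and 10.2-fold above the limit in MEFs. Their test could not be estimated in that fit, because conditions at 0 stood on both sides of the averaged contrast. With 1 coefficient for each side, an alternative chosen after seeing the data, all 5 genes were called (edgeR adjusted p = 7.1e-06 to 3.5e-04), and DESeq2 also called all 5. Without TNG MKOS ESCs replicate 1, Zscan4f was the 1 gene called, and without replicate 2 of that line Zscan4f was not called, since the other genes or Zscan4f then had 0 reads in a condition on the iPSC and ESC side.

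**Figure D1:**
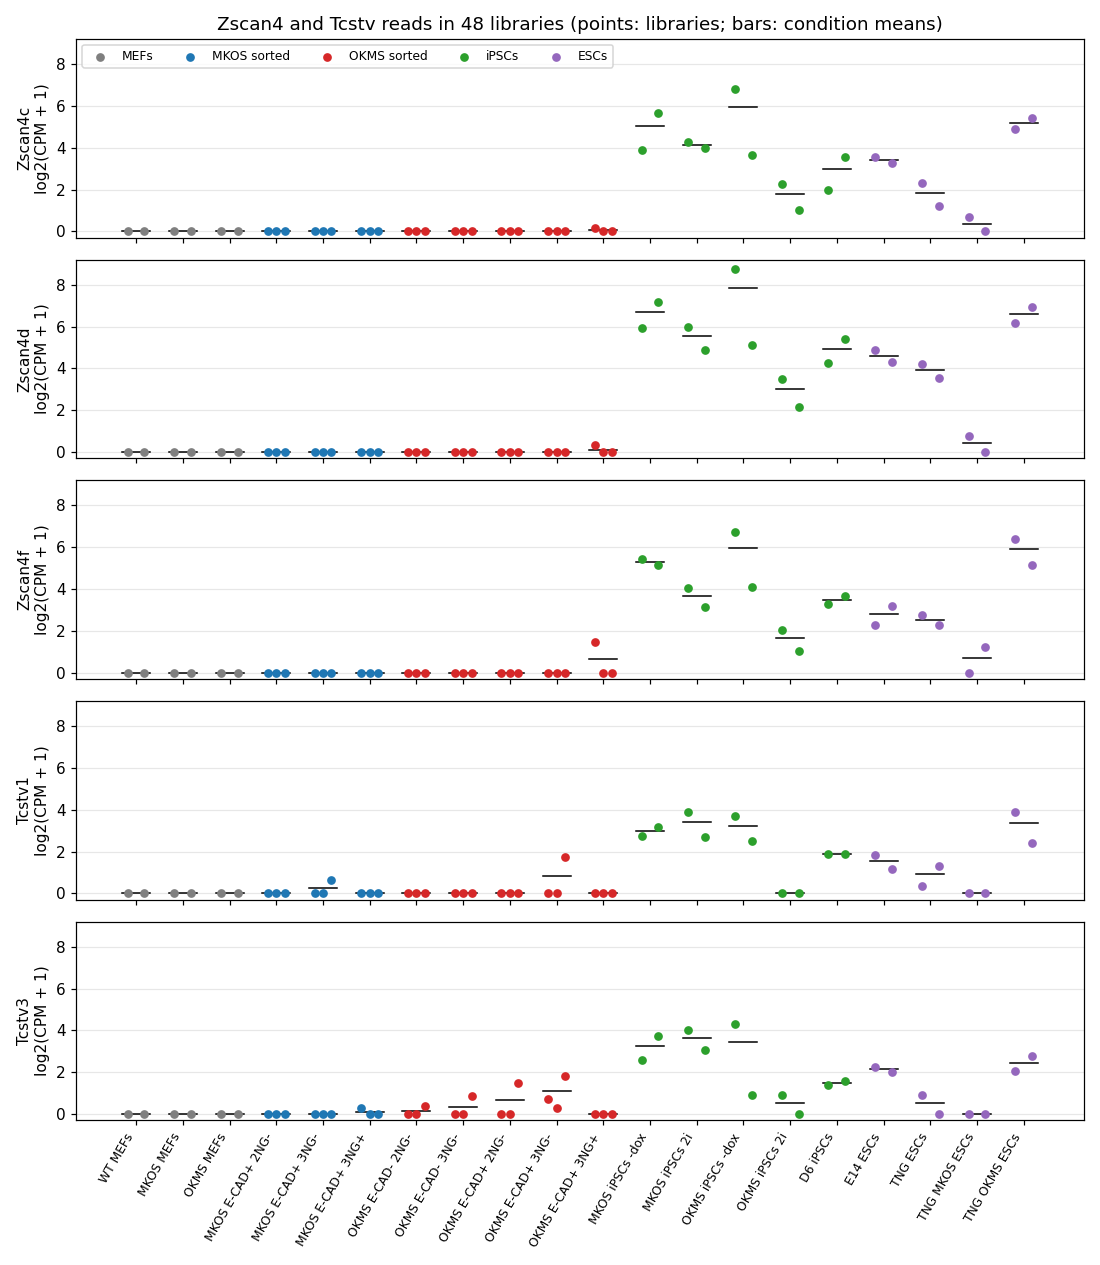
Levels of the 5 genes, as log2(CPM + 1) on the vertical axis, in each of 48 libraries (points) of 20 conditions, with the mean CPM of the condition as a bar. MEFs are at 0 for each gene, sorted MKOS and OKMS cells are at or near 0, and iPSCs and ESCs span a wide range in which TNG MKOS ESCs and OKMS iPSCs in 2i are lowest.

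Sorted cells on the way to iPSCs had few reads of these genes, in both systems. Zscan4c, Zscan4d and Zscan4f had 0 reads in 23 of 24 sorted libraries, and the remaining library, OKMS 3NG+ replicate 1, held 1, 2 and 14 reads of them. MKOS E-CAD+ 2NG- cells had no read of any of the 5 genes in 3 libraries. Tcstv1 reads were found in MKOS 3NG- replicate 3 (5 reads) and OKMS E-CAD+ 3NG- replicate 3 (10 reads) and in no other sorted library. Tcstv3, whose reads are mostly unique, was the gene seen in most sorted libraries. It had 7, 1 and 11 reads in the 3 OKMS E-CAD+ 3NG- libraries, which is 0.625, 0.238 and 2.59 CPM. OKMS E-CAD+ 2NG- replicate 3 held 26 Tcstv3 reads (1.83 CPM) and the other libraries of that condition none, and replicate 3 of OKMS E-CAD- 2NG- and E-CAD- 3NG- held 2 and 3 reads. MKOS 3NG+ replicate 1 had 1 Tcstv3 read, and the other MKOS libraries none. Most of these values are at or below the level of 3 reads or come from 1 library of a condition. In each OKMS Nanog-GFP- condition, replicate 3 held the most Tcstv3 reads.

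The sorted comparisons asked whether MKOS and OKMS cells differ at the same stage, how cells change on gaining Nanog-GFP, and how E-CAD+ and E-CAD- OKMS cells differ. In none of them was a member called by edgeR at an adjusted p of 0.05 or by DESeq2. The shares of transcripts called are at this adjusted p, so they are no background for counts of genes with an unadjusted p under 0.05. Comparing E-CAD+ 2NG- cells of the MKOS and OKMS systems, Tcstv3 had an unadjusted p under 0.05 (1 of 5 genes; adjusted p = 0.13), where 5.07% of transcripts were called. Comparing E-CAD+ 3NG- cells of the systems, Tcstv3 was again the 1 gene with an unadjusted p under 0.05 (adjusted p = 0.14), with 2.17% of transcripts called. It was at 0 in all 3 MKOS libraries and had reads in all 3 OKMS libraries. The OKMS mean was at least 3.00-fold above the limit of 3 reads, but 11 of the 19 reads were in replicate 3. Replicate 2, with 1 read (0.238 CPM), lay below the 0.335 to 0.472 CPM that 3 reads stand for in the MKOS libraries. Between MKOS and OKMS 3NG+ cells, 1 gene, Zscan4f, had an unadjusted p under 0.05 (adjusted p = 0.22), with its 14 OKMS reads in 1 library and 0.685% of transcripts called. From OKMS E-CAD+ 3NG- to 3NG+ cells, Tcstv1, Tcstv3 and Zscan4f had an unadjusted p under 0.05 (3 of 5 genes; adjusted p = 0.19, 0.14 and 0.085) and 6.26% of transcripts were called; the Tcstv genes were at 0 in 3NG+ cells and Zscan4f was at 0 in 3NG- cells. From MKOS 3NG- to 3NG+ cells, 0 of 5 genes had an unadjusted p under 0.05, and 1.58% of transcripts were called. Tcstv3 had 45 reads in OKMS E-CAD+ and 5 in E-CAD- cells, a log2 difference of 2.35 ± 1.21 (SE) with an edgeR adjusted p of 0.263. Without OKMS E-CAD+ 2NG- replicate 3 that condition held 0 Tcstv3 reads, so the difference could not be estimated. The other 4 genes could not be estimated in that contrast, where 0 of 5 genes had an unadjusted p under 0.05 and 7.08% of transcripts were called. With 1 coefficient for each side, an alternative chosen after seeing the data, 0 were called and Tcstv1 had an unadjusted p under 0.05 (edgeR adjusted p = 0.236).

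The first sorted cells were also compared with their MEFs. For MKOS E-CAD+ 2NG- cells over MKOS MEFs both sides were at 0 for all 5 genes, so there was nothing to compare, while 27% of transcripts were called by edgeR. For OKMS E-CAD- 2NG- cells over OKMS MEFs, only Tcstv3 had reads (2 reads, 0 of 5 genes with an unadjusted p under 0.05 in edgeR and 0 called in DESeq2), while 21.8% of transcripts were called. Whether the gain of Nanog-GFP changed the genes differently in MKOS and OKMS cells could be estimated for Tcstv3 alone, whose difference had an unadjusted p under 0.05 (1 of 5 genes) and an adjusted p of 0.63. In this difference 0.0256% of transcripts were called at an adjusted p of 0.05, and DESeq2 called 0 of the 5 genes. That share is no background for the count at an unadjusted p.

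Established iPSCs held far more of these transcripts than the sorted Nanog-GFP+ cells. In MKOS iPSCs -dox, Zscan4c was at 13.8 and 49.5 CPM, Zscan4d at 59.5 and 144 CPM, and Zscan4f at 42.9 and 34.4 CPM. All 3 had 0 reads in each MKOS 3NG+ library. On the means, they were at least 62.0-fold, 199-fold and 75.7-fold higher than the limit of 3 reads in MKOS 3NG+ cells. Tcstv1, at 5.81 and 8.16 CPM, was at least 13.7-fold higher. Tcstv3 was at 5.08 and 12.1 CPM, against a single read in MKOS 3NG+ cells. Each iPSC library lay above each 3NG+ library for all 5 genes, and the share of all transcripts that separate in this way was not counted. By edgeR's quasi-likelihood test 4 of 5 genes were higher, where 0.825% of transcripts were called higher (adjusted p = 1.7e-04 for Zscan4c, 6.3e-06 for Zscan4d, 1.7e-04 for Zscan4f and 0.042 for Tcstv1), and Tcstv3 had an adjusted p of 0.071. The genes called had few reads outside iPSCs and ESCs and could pass the expression filter only through those cells, which can raise this count. DESeq2 called the 3 Zscan4 genes, and Tcstv1 was not called when any one of the 5 libraries was left out (adjusted p = 0.11 to 0.14).

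In the OKMS system the same comparison gave higher means but a wide gap between the iPSC replicates. Zscan4d was at 426 CPM in OKMS iPSCs -dox replicate 1 and 33.3 CPM in replicate 2, against 2 reads in OKMS 3NG+ cells. Zscan4c was at 109 and 11.8 CPM, against 1 read. Zscan4f was at 105 and 16.03 CPM, and its mean was 103-fold that of OKMS 3NG+ cells (log2 difference 6.25 ± 1.07 SE). All 14 Zscan4f reads of OKMS 3NG+ cells came from replicate 1, without which that condition was at 0. The iPSC libraries lay above all 3NG+ libraries for each gene, although replicate 2 was 6.57-fold to 12.8-fold lower than replicate 1 for the Zscan4 genes. How many of all transcripts separate in this way was not counted. Zscan4c, Zscan4d and Zscan4f were called higher (edgeR adjusted p = 5.3e-04, 1.9e-05 and 0.0048), 3 of 5 genes where 0.301% of transcripts were called higher. Here too the expression filter, which these genes could pass only through iPSCs and ESCs, can raise the count. Tcstv1 (11.96 and 4.63 CPM) and Tcstv3 (19.0 and 0.891 CPM) were at least 8.56-fold and 10.3-fold above the limit in 3NG+ cells with edgeR adjusted p of 0.0994 and 0.0816. The limit here is raised by OKMS 3NG+ replicate 2, which had the fewest reads of all libraries. The Tcstv3 bound rests on OKMS iPSCs -dox replicate 1, since the 0.891 CPM of replicate 2 lay below the 2.10 CPM that 3 reads stand for in OKMS 3NG+ replicate 2. Without OKMS iPSCs -dox replicate 1, the log2 difference of Zscan4f was 4.25 and it was no longer called (edgeR adjusted p = 0.233). With all libraries, DESeq2 called 2 of the 5 genes.

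The markers of other states also differed between 3NG+ cells and iPSCs. The summed fibroblast markers were at 93.4 to 557 CPM in MKOS 3NG+ and 145 to 338 CPM in OKMS 3NG+ cells, against 5.88 to 25.6 CPM in MKOS and OKMS iPSCs -dox. The summed pluripotency markers were at 12492 to 16226 CPM in the 3NG+ libraries and 16905 to 18930 CPM in these iPSCs. The part of these differences in the results was not tested.

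In 2i the Zscan4 genes were lower in OKMS iPSCs, and in MKOS iPSCs no difference passed the test. In OKMS iPSCs, Zscan4d was at 426 and 33.3 CPM in -dox and 10.4 and 3.51 CPM in 2i libraries. Zscan4c was at 109 and 11.8 CPM in -dox and 3.88 and 1.05 CPM in 2i. Zscan4f was at 105 and 16.03 CPM in -dox and 3.17 and 1.05 CPM in 2i. For the 3 Zscan4 genes and Tcstv1 the 2i libraries lay below both -dox libraries. The Tcstv3 libraries nearest each other held 5 reads each, at 0.881 CPM in 2i and 0.891 CPM in -dox. The share of all transcripts whose libraries separate in this way was not counted. The fall was 5.23 ± 0.92 (SE) on the log2 scale for Zscan4d, or 33.1-fold on the means, 4.79 ± 1.12 for Zscan4c and 5.01 ± 1.15 for Zscan4f (edgeR adjusted p = 0.0058, 0.0497 and 0.044). These 3 of 5 genes were called lower where 0.365% of transcripts were called lower. Tcstv1 was at 11.96 and 4.63 CPM in -dox and at 0 in both 2i libraries, at least 15.7-fold lower, and Tcstv3 was at 19.0 and 0.891 CPM in -dox and 0.881 and 0 CPM in 2i, and neither passed the test (edgeR adjusted p = 0.154 and 0.405). The calls rest on OKMS iPSCs -dox replicate 1: without it 0 of 5 genes were called and the Zscan4d fall was 2.36 on the log2 scale, and 0 were also called without either 2i library, by DESeq2, and with these libraries fitted alone.

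In MKOS iPSCs the means were lower in 2i for the Zscan4 genes and higher for the Tcstv genes. Zscan4c was at 18.6 and 14.7 CPM in 2i, inside the range of the -dox libraries. Zscan4d was at 62.7 and 28.4 CPM, which overlapped the -dox libraries as well. Zscan4f, at 15.3 and 7.92 CPM in 2i, was the gene whose 2i libraries lay below both -dox libraries (42.9 and 34.4 CPM). The log2 difference of Zscan4f was -1.80, with a 95% interval of -3.82 to 0.22, that of Zscan4d -1.24 (-2.83 to 0.35) and that of Zscan4c -0.995 (-2.94 to 0.95). Tcstv1 differed by 0.40 (-3.01 to 3.82) and Tcstv3 by 0.32 (-3.15 to 3.79). By edgeR 0 of 5 genes were called, 0 had an unadjusted p under 0.05 and DESeq2 called 0, where 1.97% of transcripts were called.

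The difference between the systems in the change with 2i was tested directly. The log2 change from -dox to 2i was higher in MKOS than in OKMS iPSCs by 3.99 ± 1.14 (SE) for Zscan4d, 3.80 ± 1.40 for Zscan4c and 3.21 ± 1.42 for Zscan4f. None of the 5 genes passed the edgeR test (adjusted p = 0.34 to 0.71) and DESeq2 called 0, where edgeR called 0.0064% of transcripts at an adjusted p of 0.05. At an unadjusted p under 0.05 there were 4 of 5 genes, a looser threshold for which no share of transcripts is given. The test thus did not show a difference between the systems.

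**Figure D2:**
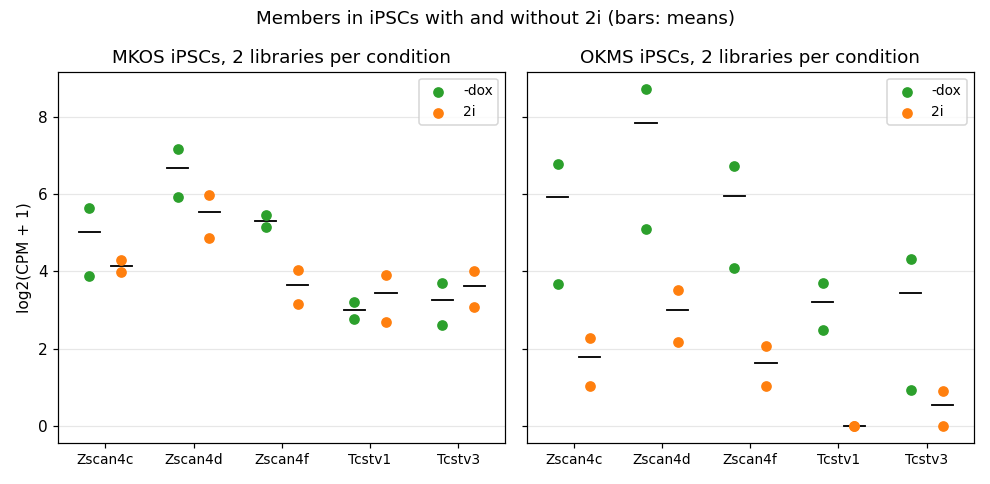
Levels of the 5 genes, as log2(CPM + 1), in the libraries (points) of MKOS and OKMS iPSCs without doxycycline or in 2i, with the mean CPM as a bar. In OKMS iPSCs, whose -dox libraries lie far apart, the 2i libraries lie below them for the Zscan4 genes and Tcstv1. For Tcstv3 the nearest libraries are level, at 0.881 CPM in 2i and 0.891 CPM in -dox. In MKOS iPSCs the 2i libraries lie below for Zscan4f alone.

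ESC lines with the same parent line stood at opposite ends of the range. TNG OKMS ESCs had a summed level of 200 and 208 CPM, and TNG MKOS ESCs had 1.27 and 1.31 CPM, although both were made from TNG ESCs, which had 28.4 and 17.3 CPM. In TNG MKOS ESCs replicate 1 the reads were 6 of Zscan4c and 7 of Zscan4d, and in replicate 2 they were 9 of Zscan4f, with no Tcstv read in either. This pair of lines was singled out after its values were seen, and the lines were not tested against each other. E14 ESCs had 49.2 and 39.8 CPM and D6 iPSCs 34.2 and 68.5 CPM. Whether the ESC lines are single clones is not stated in the labels, so a line and its cassette cannot be told apart.

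Ordered by the mean of the summed level, the conditions ran from OKMS iPSCs -dox (369 CPM; 672 and 66.6 in the libraries) through TNG OKMS ESCs (204), MKOS iPSCs -dox (188), MKOS iPSCs in 2i (94.9), D6 iPSCs (51.3), E14 ESCs (44.5) and TNG ESCs (22.8) to OKMS iPSCs in 2i (11.97; 18.3 and 5.62 in the libraries). The ranges of the libraries overlapped between neighbours in this order, except between MKOS iPSCs -dox and MKOS iPSCs in 2i, between E14 and TNG ESCs, and between OKMS iPSCs in 2i and the condition below it, OKMS E-CAD+ 3NG- cells (1.94 CPM). TNG MKOS ESCs (1.29 CPM) came after those cells, and their libraries lay within the range of the OKMS E-CAD+ 3NG- libraries (0.238 to 4.94 CPM). The replicates of OKMS iPSCs -dox differed by 10.1-fold, against 1.03-fold to 3.26-fold for the other iPSC and ESC conditions.

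MKOS iPSCs -dox exceeded TNG MKOS ESCs, whereas OKMS iPSCs -dox and TNG OKMS ESCs overlapped. Zscan4d was at 59.5 and 144 CPM in MKOS iPSCs -dox and 0.685 and 0 CPM in TNG MKOS ESCs, a log2 difference of 7.93 ± 1.13 (SE). Zscan4c differed by 6.48 ± 1.26 and Zscan4f by 6.09 ± 1.25, and for each of the 5 genes both iPSC libraries lay above both ESC libraries. How many of all transcripts do so was not counted. The 3 Zscan4 genes were called higher by edgeR (adjusted p = 7.9e-04 for Zscan4d, 0.019 for Zscan4c and 0.025 for Zscan4f), 3 of 5 genes where 0.243% of transcripts were called higher. Tcstv1 and Tcstv3, at 0 in TNG MKOS ESCs, were at least 19.1-fold and 23.5-fold higher in the iPSCs (adjusted p = 0.28 and 0.24). DESeq2 called 0 of 5. With 1 library left out, edgeR called 0 genes without TNG MKOS ESCs replicate 2, 1 without its replicate 1 or without MKOS iPSCs -dox replicate 2, and 2 without MKOS iPSCs -dox replicate 1.

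For OKMS iPSCs -dox against TNG OKMS ESCs, the edgeR test called 0 of 5 genes, 0 had an unadjusted p under 0.05, and DESeq2 called 0 of the 3 Zscan4 genes and gave no adjusted p for Tcstv1 and Tcstv3, where 0.608% of transcripts were called. Zscan4d was at 71.2 and 121 CPM in TNG OKMS ESCs and differed by 1.52 on the log2 scale (95% interval -0.07 to 3.10), and the intervals of the other 4 genes ranged from -3.16 to 4.93. Each of the 5 differences turned negative without OKMS iPSCs -dox replicate 1. Between E14 and TNG ESCs, which carry no cassette, Zscan4c was at 10.9 and 8.55 CPM in E14 and 3.94 and 1.31 CPM in TNG ESCs (log2 difference 1.82, 95% interval -0.21 to 3.85), and for Zscan4c, Zscan4d and Tcstv3 both E14 libraries lay above both TNG libraries. How many of all transcripts separate in this way was not counted. Here edgeR called 0 of 5 genes, 0 had an unadjusted p under 0.05, DESeq2 called 0, and 0.0448% of transcripts were called.

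**Figure D3:**
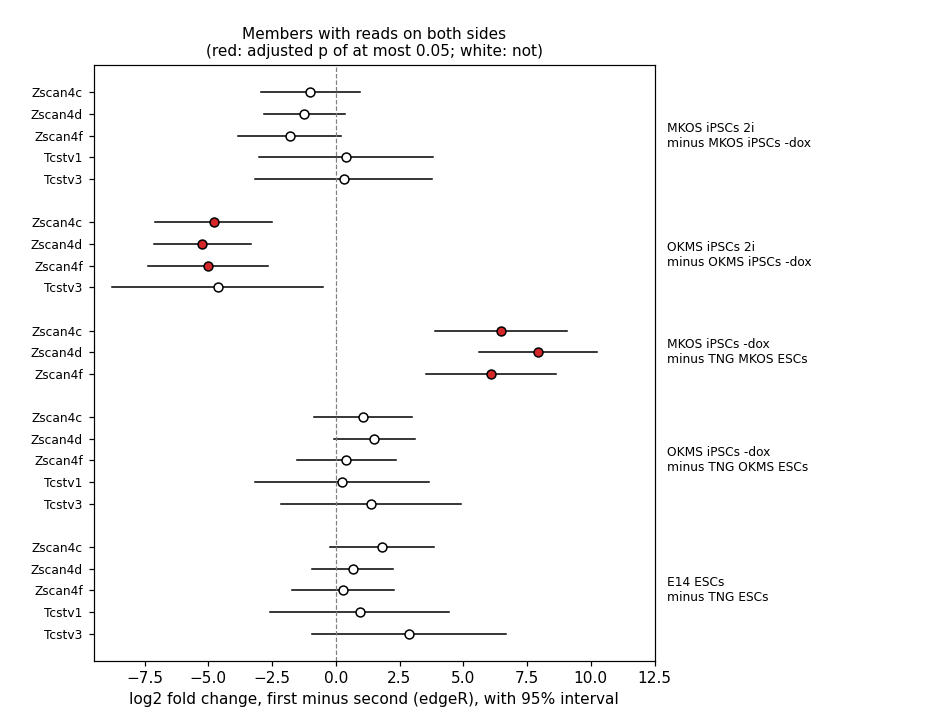
Log2 differences from edgeR with 95% intervals on the horizontal axis, for the genes with reads on both sides of each of 5 comparisons named at the right (first minus second condition). Red points passed the test: the 3 Zscan4 genes in OKMS iPSCs with 2i, on the negative side, and the 3 Zscan4 genes in MKOS iPSCs -dox against TNG MKOS ESCs, on the positive side.

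The 5 genes varied together over the 18 iPSC and ESC libraries. On log2(CPM + 1), Pearson's r between pairs of them ranged from 0.76 (Zscan4f and Tcstv3) to 0.96 (Zscan4c and Zscan4d). These correlations are descriptions over libraries that share conditions and, among the Zscan4 copies, reads. Of the 12671 reads of the 5 genes in these libraries, 11670 were of the 3 Zscan4 genes, and 6988 of Zscan4d alone. The summed level thus mostly follows the Zscan4 copies, for which many reads had several positions. The summed level of the 5 genes followed MT2_Mm, the LTR promoter of MERVL, with r = 0.97 (Spearman's rho = 0.98), and MERVL-int, the internal part of the retrovirus, with r = 0.92 (rho = 0.95). Zfp352, another gene of the two-cell-like state, followed it less closely, with r = 0.49 (rho = 0.56). Unlike the Zscan4 genes, Zfp352 had reads in 10 of 24 sorted libraries, at up to 4.88 CPM. For the major satellite repeat GSAT_MM r was 0.25, and for the number of reads on transcripts -0.30. Among the 6 pluripotency markers r was 0.49 for Tdgf1, 0.24 for Dppa5a, 0.04 for Zfp42, -0.07 for Nanog, -0.07 for Pou5f1 (Oct4) and -0.29 for Esrrb. MT2_Mm was at 2703 and 261 CPM in OKMS iPSCs -dox replicates 1 and 2, at 102 and 36.5 CPM in OKMS iPSCs in 2i, and at 15.4 and 18.2 CPM in TNG MKOS ESCs. These are the same libraries that were high or low for the 5 genes. In MEFs MT2_Mm was at 1.55 to 4.92 CPM. The MKOS 3NG+ libraries, with 0 Zscan4c, Zscan4d and Zscan4f reads, had 55.7 to 92.1 CPM of MT2_Mm, and the OKMS 3NG+ libraries had 9.09 to 25.0 CPM.

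**Figure D4:**
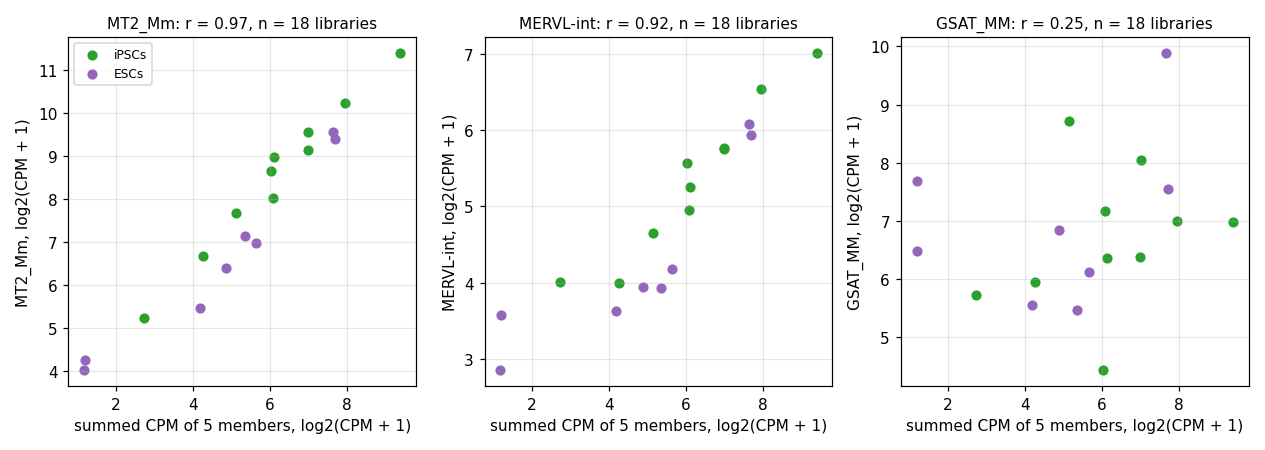
Summed CPM of the 5 genes (horizontal axis) against CPM of the repeats MT2_Mm, MERVL-int and GSAT_MM (vertical axes), all as log2(CPM + 1), in 18 iPSC and ESC libraries (points). MT2_Mm and MERVL-int rise with the summed level, which is mostly Zscan4 reads (r = 0.97 and 0.92), and GSAT_MM does not follow it closely (r = 0.25).

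Other genes of the two-cell-like state were counted from lists made from general knowledge. Of the other Zscan4 copies, Zscan4a, Zscan4b and Zscan4e were in the table and tested, with 43.7%, 0.223% and 0.476% unique reads; RefSeq annotates Zscan4a and Zscan4e as pseudogenes. Zscan4b and Zscan4e were called higher in MKOS iPSCs -dox than in MKOS 3NG+ cells (2 of 3; 315 and 129 reads against 1 and 0, where 0.825% of transcripts were called higher; edgeR adjusted p = 0.0034 and 0.0205). Zscan4b was called in OKMS iPSCs -dox over OKMS 3NG+ cells (1 of 3, against 0.301% of transcripts; 25.4 against 0.210 CPM), and 2 of 3 copies were higher in iPSCs and ESCs than in MEFs (28.5% of transcripts), where all 3 were at 0. These copies, too, could pass the expression filter only through iPSCs and ESCs, which can raise the counts over 3NG+ cells and MEFs. None of the 3 was called in 2i or against TNG MKOS ESCs.

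Of 53 other two-cell-like genes, 36 were in the table and 27 were tested. In MKOS iPSCs -dox over MKOS 3NG+ cells 3 of the 27 were called higher (0.825% of transcripts) and 0 lower, with a median log2 difference of 3.31 against 0 over all transcripts, and in the OKMS comparison 4 were higher (0.301% of transcripts) and 0 lower (median 6.32 against 0). In OKMS iPSCs 2 of 27 were lower in 2i (0.365% of transcripts) and 0 higher (median -3.30 against 0), and over TNG MKOS ESCs 3 were higher in MKOS iPSCs -dox (0.243% of transcripts) and 0 lower (median 5.57 against 0). Medians of fitted values include genes at 0 on one side and are no bound. They cover only genes that passed the expression filter. A gene near 0 in MEFs and sorted cells could pass it only through iPSCs or ESCs, which can raise the medians and counts over 3NG+ cells. The genes called were few and recurred. Gm5662 was at 73.2 and 100.1 CPM in MKOS iPSCs -dox, 40.3 and 342 CPM in OKMS iPSCs -dox, 2.81 and 19.2 CPM in OKMS iPSCs in 2i and 1.96 and 2.18 CPM in TNG MKOS ESCs, and was called in all 4 of these comparisons (edgeR adjusted p = 0.0017 to 0.018). AF067061 had 0 reads in MKOS and OKMS 3NG+ cells, OKMS iPSCs in 2i and TNG MKOS ESCs, against 229 reads in MKOS and 244 in OKMS iPSCs -dox, and was called in the same 4 comparisons (adjusted p = 0.0051 to 0.041). Gm8300 was called in 3 of the 4 (adjusted p = 0.0055 to 0.0245), and Gm2022 was called in OKMS iPSCs -dox over OKMS 3NG+ cells (40.7 against 0.0841 CPM; adjusted p = 0.0046). In iPSCs and ESCs over MEFs, 7 of 27 were higher and 1 was lower (median 4.43 against 0), a share close to the 28.5% of transcripts called higher.

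Genes known to activate or silence the state were counted in the same way, and their part in the results was not tested. From OKMS E-CAD+ 3NG- to 3NG+ cells, 3 of 5 activators and 7 of 19 repressors were called higher and 0 lower, with 6.26% of transcripts called in either direction. Of 6 activators, 5 were tested, and all 5 were higher in iPSCs and ESCs than in MEFs, where 28.5% of transcripts were. Among them were Dppa2 (120 against 0.0512 CPM; edgeR adjusted p = 4.7e-18), Dppa4 (218 against 0.0309 CPM; adjusted p = 4.1e-18) and Dppa3 (248 against 0.118 CPM; adjusted p = 1.7e-13), chromatin-binding proteins of early embryos and germ cells. None of the 5 was called in OKMS iPSCs with 2i. Tbx3, a T-box factor, was lower in MKOS iPSCs -dox than in MKOS 3NG+ cells, at 22.02 against 78.5 CPM (log2 difference -1.85 ± 0.51 SE, edgeR adjusted p = 0.042), and higher than in TNG MKOS ESCs, at 4.13 CPM (2.56 ± 0.58, adjusted p = 0.032). Over the 18 libraries r with the summed level was 0.38 for Dppa2, 0.19 for Dppa4 and 0.30 for Dppa3. Of 19 repressors, which silence MERVL or the genes near it, 0 were called in either direction in MKOS or OKMS iPSCs -dox over 3NG+ cells or over TNG MKOS ESCs. In OKMS iPSCs 1 of 19 was lower in 2i, where 0.365% of transcripts were: Dnmt3a, a de novo DNA methyltransferase, at 16.6 against 99.2 CPM (log2 difference -2.72 ± 0.52 SE, edgeR adjusted p = 0.0049). In MKOS iPSCs 1 of 19 was also lower with 2i, where 1.97% of transcripts were called in either direction. Higher in iPSCs and ESCs than in MEFs were 18 of 19, against 28.5% of transcripts. Of 12 telomere and meiotic recombination genes, 11 were tested; Smc1b, a meiotic cohesin subunit, was at 47.4 CPM in MKOS iPSCs -dox against 1.73 CPM in TNG MKOS ESCs (4.83 ± 1.15, adjusted p = 0.047), and none was called in the 3NG+ or 2i comparisons that called members. In iPSCs and ESCs over MEFs, 9 of 11 were higher, against 28.5% of transcripts.

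Cell type markers were summed over the same libraries. In OKMS iPSCs the summed pluripotency markers were at 17037 and 17673 CPM in -dox and 12870 and 18843 CPM in 2i, the 5 epithelial markers at 181 to 365 and 168 to 184 CPM, the 5 trophoblast markers at 8.37 to 14.8 and 4.05 to 6.85 CPM, and the 5 primitive endoderm markers at 3.38 to 4.33 and 2.29 to 3.34 CPM. In TNG MKOS and TNG OKMS ESCs the pluripotency markers were at 12788 to 16065 and 13963 to 15569 CPM, the trophoblast markers at 2.18 to 4.21 and 3.72 to 6.20 CPM, and the primitive endoderm markers at 0.0978 to 0.145 and 1.203 to 4.36 CPM. Their part in the results was not tested.

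The 10 tested transcripts most like the 5 genes were taken by Pearson's r of log2(CPM + 1) with the summed level over the means of 20 conditions. They were Gm11487 (r = 0.978), Gm8300 (0.966), Gm4305_loc2 (0.965), Gm13043 (0.964), Dub1a (0.961), LOC100861880_loc7 (0.958), LOC100861891_loc4 (0.958), Gm6763_loc3 (0.955), Zscan4e (0.954) and Gm6763_loc2 (0.954). Gm8300 and Dub1a, a deubiquitinating enzyme gene, had 90.7% and 88.8% unique reads, and the other 8 had less than 1%. Gm8300 and Dub1a were also on the list of two-cell-like genes, and Zscan4e is a copy of the same cluster. All of them reached their highest mean in OKMS iPSCs -dox or TNG OKMS ESCs, the conditions with the highest summed level, and 9 of the 10 had 0 reads in all MEF libraries. They were chosen for following the summed level over these same conditions, so this pattern is no separate result.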

How the data were processed

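Total RNA of flow-sorted cells and cultured lines was sequenced with STRT, which tags the 5′ ends of transcripts. The authors deposited a table of raw read counts per transcript, repeat type and spike RNA for 48 libraries. Reads with several positions were given to the most 5′ exonic one, and a further deposited column gives the counts of unique reads pooled over all libraries. The labels' processing notes list Bowtie 0.12.7 and mm10, whereas the methods name mm9; positions in the table lay within 101 bases of the GRCm38 RefSeq gene start for 81.4% of 20698 shared symbols, so GRCm38.p6 coordinates are given.

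CPM (reads per 1e+06 reads) was computed from the deposited counts over transcript rows, without repeats and spike RNAs. Libraries were grouped by their labels. The counts were tested by the quasi-likelihood test of edgeR 4.0.16 under R 4.3.3 (normalization by TMM, expression filter by condition, trended dispersion, 1 coefficient per condition over all 48 libraries, 15630 transcripts tested) with Benjamini-Hochberg adjustment at 0.05. Intervals are 95% intervals from the same fit. The limit of a count of 0 is 3 reads per library, and limits cover counting error only. Alternatives were DESeq2 1.42.0, its size factors in edgeR, no filter, summed copies, a replicate block, the compared libraries alone and leaving out each library. The block and the fits without a library reused the dispersions of the full fit. Listed genes were named where they passed the test in a comparison that called members, at most 6 per comparison with the largest log2 difference. The 5 genes, the lists and the tests were chosen with earlier results of these data known. On counts simulated for MKOS 3NG+ against OKMS 3NG+ cells (15630 transcripts), edgeR recovered 39% of 100 transcripts changed 4-fold and 80% of 100 changed 64-fold. Of the transcripts called there, 7 of 126 (edgeR) and 19 of 138 (DESeq2) were unchanged. The simulation drew 3 libraries per side with 1 dispersion for all transcripts and fitted them alone. It therefore does not give the recovery of the fit of 48 libraries. Python 3.11.15, pandas 2.3.3, NumPy 2.4.6, SciPy 1.17.1 and Matplotlib 3.10.9 were used for tables and figures.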

Additional observations from a re-analysis of the deposited data

How the results depend on the processing

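The count of the 5 genes called changed with the processing as follows. Without a filter on low counts, 5 were called in OKMS iPSCs -dox over OKMS 3NG+ cells and in MKOS iPSCs -dox over TNG MKOS ESCs, and 1 each between E-CAD+ 3NG- cells of the systems, between MKOS and OKMS 3NG+ cells, between OKMS 3NG+ and E-CAD+ 3NG- cells, in OKMS iPSCs -dox against TNG OKMS ESCs and in the difference between the systems in 2i. DESeq2 called 0 in OKMS iPSCs with 2i, 0 in MKOS iPSCs -dox over TNG MKOS ESCs and 5 in iPSCs and ESCs over MEFs, and 1 coefficient per side also gave 5 there. Fitted alone, the compared libraries gave 0 with 2i in OKMS iPSCs and 5 over TNG MKOS ESCs. With copies summed to 2 sums, 2 were called in MKOS and in OKMS iPSCs -dox over 3NG+ cells (Tcstv sum: edgeR adjusted p = 0.0105 and 0.0204) and 1 each with 2i in OKMS iPSCs, over TNG MKOS ESCs and over MEFs. The cause was not tested, except that summing leaves fewer features.

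Leaving out 1 library gave 0 to 3 genes with 2i in OKMS iPSCs, 0 to 2 over TNG MKOS ESCs, 1 to 3 over MEFs, 2 to 4 in OKMS iPSCs -dox over 3NG+ cells, and 0 to 1 both between OKMS 3NG+ and E-CAD+ 3NG- cells (1 without OKMS 3NG+ replicate 3) and in the difference between the systems in 2i (1 without OKMS iPSCs -dox replicate 2). Log2 differences that changed sign, none of them called, ranged for OKMS iPSCs -dox against TNG OKMS ESCs from -0.66 to 1.06 (Tcstv1), -2.14 to 2.33 (Tcstv3), -1.38 to 1.92 (Zscan4c), -1.35 to 2.41 (Zscan4d) and -1.58 to 1.23 (Zscan4f). With 2i in MKOS iPSCs they ranged from -0.36 to 0.90 (Tcstv1), -0.21 to 1.09 (Tcstv3) and -1.65 to 0.22 (Zscan4c). Tcstv1 between E-CAD+ 3NG- cells of the systems ranged from -5.43 to 3.45, and Zscan4f between E14 and TNG ESCs from -0.43 to 0.76. The fitted values of Tcstv3 between OKMS E-CAD+ and E-CAD- cells ran from -0.36 to 4.27. They are no estimate without replicate 3 of E-CAD+ 2NG-, E-CAD- 2NG- or E-CAD- 3NG- cells, since that left a condition at 0.

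With the replicate number as a block, 5 genes were called in MKOS and in OKMS iPSCs -dox over 3NG+ cells, which adds Tcstv3 in MKOS (edgeR adjusted p = 0.0482) and Tcstv1 and Tcstv3 in OKMS cells (0.0248 and 0.0306). The labels do not say that a number marks a shared source: over 84 same-numbered pairs of sorted libraries the mean correlation of deviations was 0.0939 (-0.0511 to 0.414), 27 pairs were over 0.1, and 20 of 24 libraries correlated best with their own number.

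Over all transcripts, edgeR and DESeq2 called 335 and 583 in MKOS iPSCs -dox over 3NG+ cells, 96 and 222 in the OKMS comparison, 79 and 280 with 2i in OKMS iPSCs and 48 and 92 over TNG MKOS ESCs, and without the filter edgeR called 799, 384, 385 and 229. DESeq2's size factors moved the median log2 difference over MEFs from 0 to -0.11. TMM-scaled CPM moved 1 of 52 condition means by over 1 SD, that of Tcstv1 in D6 iPSCs (3.00 CPM). Depth limits what a count of 0 means, most in OKMS 3NG+ replicate 2.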

Other observations

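The split of Zscan4c, Zscan4d and Zscan4f reads among the 3 copies varied between libraries of one line. In TNG OKMS ESCs the copies held 15.6%, 38.9% and 45.5% of their 1092 summed reads in replicate 1 and 21.0%, 61.4% and 17.6% of 1806 in replicate 2. In MKOS iPSCs -dox they held 11.9%, 51.2% and 36.9% of 1121 reads in replicate 1 and 21.7%, 63.2% and 15.1% of 1284 in replicate 2. Few Zscan4d and Zscan4f reads were unique, so these shares depend on how reads with several positions were placed.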
